A study of Mus musculus with 6 samples.

Results

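The histone cluster genes encode the linker histone H1 and the core histones H2A, H2B, H3 and H4. They were taken as every gene whose symbol starts with Hist1h, Hist2h, Hist3h or Hist4h in any of the 4 deposited tables that pair genes with peaks, which gave 57 of 18778 genes. By type these were 5 H1, 15 H2A, 13 H2B, 12 H3 and 12 H4 genes. A RefSeq table lists 70 genes under such a symbol, and those in none of the deposited tables are not analysed here. On chromosome 13 the 44 genes fell into 3 groups, of 13 (Hist1h2bl to Hist1h4m), 5 (Hist1h2ah to Hist1h2bj) and 26 genes (Hist1h4h to Hist1h1a), here called Hist1 groups a, b and c. The Hist2 cluster had 9 genes on chromosome 3, the Hist3 cluster 3 genes on chromosome 11, and Hist4h4 stood alone on chromosome 6. The tables give the symbol Hist2h4 to 2 genes. The one on chromosome 13 lies in group a and is described there.

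The study compared mouse neural stem cells (NSCs), derived from C57BL/6 embryonic stem cells and used at passages 25 to 30, with neurons differentiated from them. NSCs were at day 0, negative for the RedStar reporter and grown with FGF2 and EGF, and neurons were at day 11 and sorted for RedStar, a fluorescent protein under the Tau promoter. The antibodies were to H3K4me3, found at promoters that are active or poised, and to H3K27me3, which Polycomb repressive complex 2 deposits. Each antibody was used on 1 chromatin sample of each cell type, with 1 input, so no difference below has a replicate check and none was tested. In such bulk chromatin, fewer cells with a mark and less of the mark per cell cannot be told apart.

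Replication of DNA needs new histones in equal measure, and the cluster genes supply them during S phase. They are short, mostly without introns, and their mRNAs end in a stem-loop that is bound by SLBP in place of a poly(A) tail. Many H2A and H2B genes stand head to head and share the promoter between them. A cell that leaves the cell cycle, as a neuron does, no longer makes bulk replication histones and relies more on variants made outside S phase, such as H3.3 and H2A.Z. H1 binds the linker DNA between nucleosomes, H2A and H2B form dimers at the outside of the core particle, and H3 and H4 form its central tetramer.

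The promoters below, read from RefSeq on GRCm38.p6, are those at which the H3K4me3 results turn. Each is the 180 bases before the annotated start site, 5′ to 3′ on the strand of the gene. Capitals mark matches, on either strand, to the CCAAT box (CCAAT), the octamer (ATTTGCAT), the TATA box (TATAAA), an H1 gene box (AAACACA) and an H4 gene box (GGTCCG). Hist1h2bj and Hist1h2bk are H2B genes whose start sites had a peak in NSCs and none in neurons, Hist1h2bn is an H2B gene marked in both, and Hist1h3b is an H3 gene marked in NSCs alone. Hist1h4j and Hist4h4 are H4 genes and Hist1h1c is an H1 gene, all marked in both, and Hist3h2ba was the only member with H3K27me3.
Hist1h2bj: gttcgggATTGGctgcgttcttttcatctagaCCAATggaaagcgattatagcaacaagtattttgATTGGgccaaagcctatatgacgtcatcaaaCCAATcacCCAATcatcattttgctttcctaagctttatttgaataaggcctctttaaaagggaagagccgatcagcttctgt
Hist1h2bk: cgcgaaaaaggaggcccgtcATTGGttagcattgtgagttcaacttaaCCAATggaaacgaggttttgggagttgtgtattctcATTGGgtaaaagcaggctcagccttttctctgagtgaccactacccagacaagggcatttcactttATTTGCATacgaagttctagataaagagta
Hist1h2bn: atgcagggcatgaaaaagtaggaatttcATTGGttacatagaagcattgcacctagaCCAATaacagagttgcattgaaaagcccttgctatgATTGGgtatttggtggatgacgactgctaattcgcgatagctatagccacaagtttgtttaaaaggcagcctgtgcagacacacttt
Hist1h3b: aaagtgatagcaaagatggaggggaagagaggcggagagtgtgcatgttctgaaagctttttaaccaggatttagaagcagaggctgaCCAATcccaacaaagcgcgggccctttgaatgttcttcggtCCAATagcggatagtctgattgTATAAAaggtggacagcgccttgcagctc
Hist1h4j: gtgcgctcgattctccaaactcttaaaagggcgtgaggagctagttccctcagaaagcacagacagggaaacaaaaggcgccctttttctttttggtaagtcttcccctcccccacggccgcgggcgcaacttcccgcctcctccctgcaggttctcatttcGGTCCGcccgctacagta
Hist4h4: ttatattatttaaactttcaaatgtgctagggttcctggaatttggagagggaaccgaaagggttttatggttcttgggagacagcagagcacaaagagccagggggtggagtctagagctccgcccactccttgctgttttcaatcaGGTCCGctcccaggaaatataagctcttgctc
Hist1h1c: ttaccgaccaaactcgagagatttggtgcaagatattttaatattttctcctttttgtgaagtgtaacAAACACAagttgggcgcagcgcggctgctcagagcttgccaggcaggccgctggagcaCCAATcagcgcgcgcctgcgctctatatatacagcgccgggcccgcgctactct
Hist3h2ba: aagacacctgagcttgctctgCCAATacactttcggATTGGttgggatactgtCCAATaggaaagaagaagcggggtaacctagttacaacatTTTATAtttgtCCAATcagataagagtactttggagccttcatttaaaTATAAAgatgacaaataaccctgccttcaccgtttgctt
These stretches lie on chromosome 13 from 22043018 to 22043197 (Hist1h2bj), 22035641 to 22035820 (Hist1h2bk), 21753896 to 21754075 (Hist1h2bn), 23752165 to 23752344 (Hist1h3b), 21734854 to 21735033 (Hist1h4j) and 23738627 to 23738806 (Hist1h1c). That of Hist4h4 is on chromosome 6 from 136804432 to 136804611, on the minus strand, and that of Hist3h2ba is on chromosome 11 from 58948731 to 58948910. The others are on the plus strand. Peak positions in what follows are on mm9, the build of the deposited files, and are not comparable with these.

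The H4 box, the H1 box and the octamer were found mostly in windows of certain histone types, and the TATA box in all types. For 48 members a single RefSeq window of 300 bases was matched by symbol, from 250 before to 50 after the start. CCAAT was in 41 of these 48 (85.4%), against 37.9% of all 27025 genes with a window. It was in all 5 H1, 14 H2A, 9 H2B and 10 H3 windows and in 3 of 10 H4 windows. The H4 box was in 9 of 10 H4 windows, against 8.39% of all windows, and in 2 windows of the other types. The H1 box was in 4 of 5 H1 windows (7.14% of all windows) and in 1 H2A window. The octamer was found only in H2A and H2B windows, 5 of 14 and 3 of 9, against 1.75% of all. TATAAA was in 29 of 48 windows (60.4%), against 14.2% of all, with 4 of 5 H1, 8 of 14 H2A, 6 of 9 H2B, 4 of 10 H3 and 7 of 10 H4 windows. Matches to different motifs can share letters at their ends, such as CCAAT with ATTTGCAT. Paired H2A and H2B genes have overlapping windows and were counted for each gene. For 3 members, Hist1h4m, Hist2h2aa1 and Hist2h2aa2, the RefSeq window is on the other strand from the deposited gene, so names may have been exchanged between copies, and these windows are counted by type only.

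In NSCs, every scored histone cluster gene carried H3K4me3. A peak of the NSC H3K4me3 list lay within 1000 bp of the start site at 57 of 57 genes (95% exact interval 93.7 to 100), against 70.4% of all genes in the tables. Genes enter these tables through a peak, so histone genes far from any peak would not have been counted. The signal in these peaks was lower than at the median marked gene. The 43 peaks at histone genes had a median of 56.7 immunoprecipitated reads per kb (range 30 to 147.5), and the nearest peaks of all marked genes had 95.7. Input reads did not differ in this way, with medians of 10 and 10.5 per kb. Widths were alike, with a median of 2200 bp in both.

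**Figure D1:**
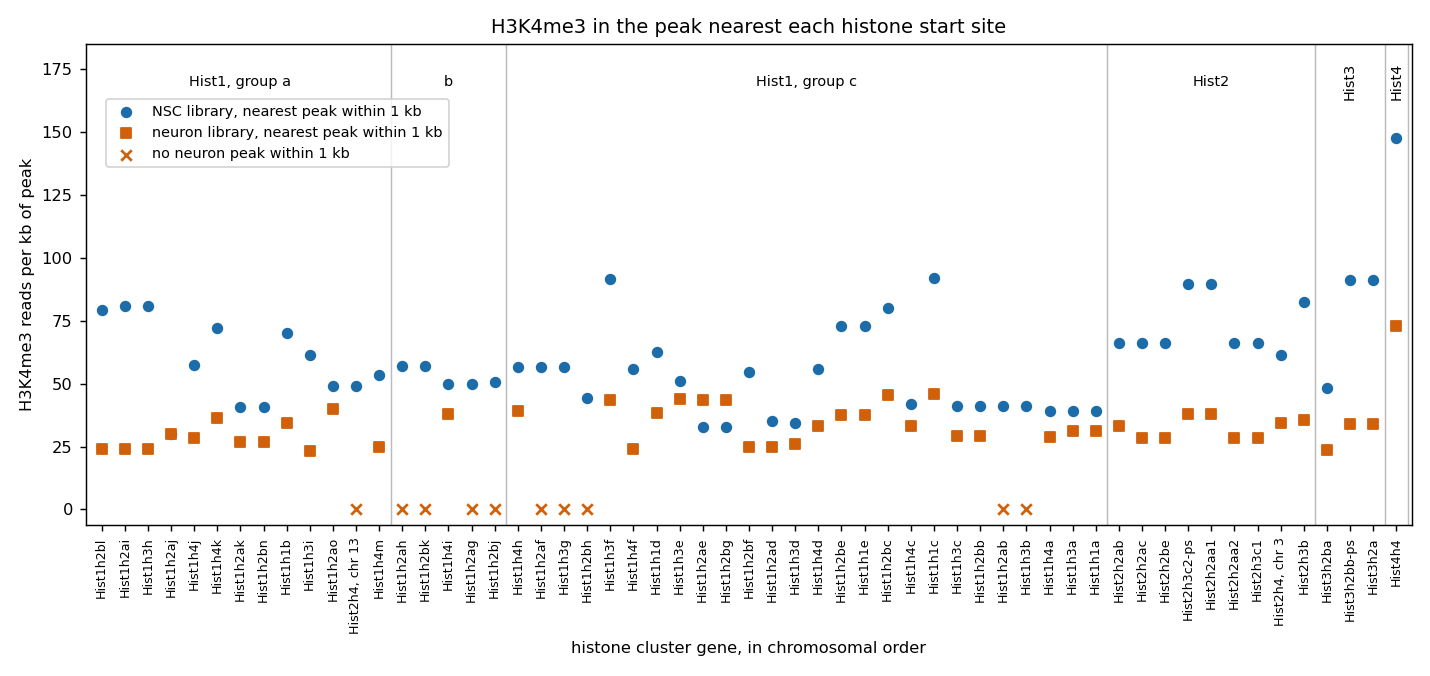
H3K4me3 reads per kb of the peak nearest each of the 57 histone start sites, in chromosomal order, for the NSC library (circles) and the neuron library (squares), 1 library each. Crosses at 0 mark the 10 genes without a neuronal peak within 1000 bp, 9 of them in Hist1 groups b and c, and the highest circle, at 147.5, is Hist4h4; the circle of Hist1h2aj lies under its square, both at 30.

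The genes shared these peaks. Of the 43 NSC peaks, 21 lay within 1000 bp of several members, 14 of them at 2 genes, 6 at 3 genes and 1 at 4 genes. The peak with the most genes, on chromosome 13 from 23663600 to 23665799, lay between the pairs Hist1h2ae with Hist1h2bg and Hist1h2bf with Hist1h2ad and held 120 reads over 23 input reads. The widest peak, 7600 bp, spanned Hist1h4h, Hist1h2af and Hist1h3g and also held the most reads, 431 over 93 input reads. The narrowest, 600 bp, stood at Hist1h3f with 55 reads over 3. The peak with the fewest reads, 35 over 14 input reads, lay beside Hist1h2bf, Hist1h2ad and Hist1h3d. Members are thus not separate observations of the mark.

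Hist4h4, an H4 gene outside the larger clusters, had the most reads per kb in both cell types, but not relative to input. Its peak held 354 reads over 64 of input in NSCs and 160 over 40 in neurons, or 147.5 and 72.7 reads per kb. Its deposited fold over input was 5.66 in NSCs, where the histone peaks had a median of 5.97. In neurons it was 3.97, as was their median. Next in NSCs came Hist1h1c, which encodes the linker histone H1.2, with 92.1 reads per kb, Hist1h3f with 91.7, and the Hist3 pair Hist3h2bb-ps and Hist3h2a with 91.3. The lowest was Hist1h2aj, an H2A gene by its symbol, at 30 reads per kb. Median levels per histone type lay close together in NSCs, at 70.3 reads per kb for H1, 56.7 for H2A, 54.5 for H2B, 59.0 for H3 and 55.9 for H4 genes. By cluster, the medians were 53.3 for genes named Hist1h, 66.1 for Hist2h and 91.3 for the 3 Hist3h genes.

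H3K4me3 peaks often stood beside histone start sites and not over them. The start site itself was inside an NSC peak at 41 of 57 members (71.9%, 95% exact interval 58.5 to 83.0), against 95.2% of the 13218 genes marked in NSCs. The 16 other members lay 14 to 266 bp outside the nearest peak. All 5 H1 and all 12 H4 start sites were inside a peak, but 8 of 15 H2A, 7 of 13 H2B and 9 of 12 H3 start sites were. Weak peaks alone covered fewer start sites, and most members had weak peaks. All marked genes were put into 5 groups of nearly equal size by the reads per kb of the NSC peak. In the weakest group were 41 of the members. There 86.6% of all start sites were inside their peak, as were 30 of the 41 members. In the next group the values were 96.1% of all genes and 6 of 11 members.

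**Figure D2:**
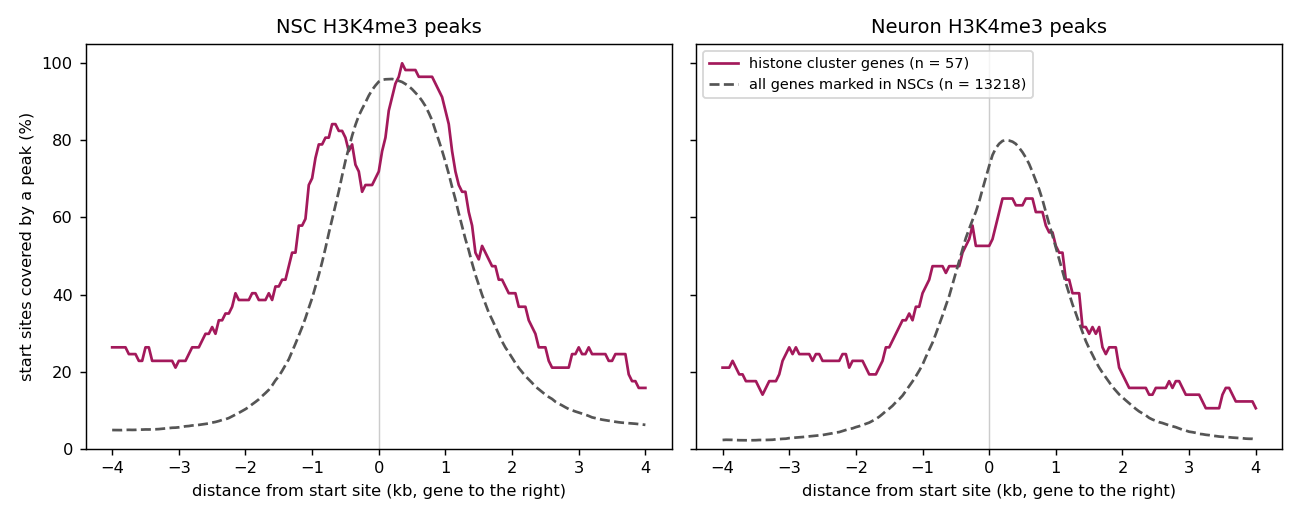
Share of start sites at which a position is covered by an H3K4me3 peak, by distance from the start site with the gene to the right, for the 57 histone genes (solid) and all 13218 genes marked in NSCs (dashed), in the NSC list (left) and the neuron list (right). In NSCs the histone curve dips to 66.7% at 250 bp before the start site, between 84.2% at 700 bp before and 98.2% at 500 bp after, where the curve of all genes has 1 maximum.

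The coverage around the start site had 2 humps in NSCs. At 700 bp before the start site 84.2% of members were covered, at 250 bp before it 66.7%, and at 500 bp after it 98.2%. Over all marked genes the same positions gave 59.5%, 88.2% and 93.3%. Coverage also reached farther. At 2000 bp before the start site it was 38.6% for members and 10.3% for all marked genes, in clusters where the next histone gene is near.

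The dip lay in part over promoters shared by head-to-head genes. Among the members, 9 pairs had start sites facing away from each other at 173 to 608 bp, 8 of them an H2A with an H2B gene and 1 the H2B gene Hist1h2bh with the H3 gene Hist1h3f. The midpoint between the start sites was inside an NSC peak at 4 of the 9 pairs (95% exact interval 13.7 to 78.8%). Over all 451 divergent pairs of the same range of separation with both genes marked, it was inside at 97.6% (95.7 to 98.8). The gap was 600 bp wide at Hist1h2bl and Hist1h2ai, at Hist1h2ae and Hist1h2bg and at Hist1h2bf and Hist1h2ad, and 400 bp wide at Hist1h2ag and Hist1h2bj and at Hist1h2bh and Hist1h3f. No adjacent peaks in the NSC H3K4me3 list were closer than 400 bp, so narrower gaps could not be seen. In neurons the midpoint was inside a peak at 4 of the 6 pairs with both genes marked (22.3 to 95.7%), and at 82.2% of all pairs of like separation. The promoter of Hist1h2bl and Hist1h2ai, beside both NSC peaks, was under a single neuronal peak, 2000 bp wide, that held 48 reads over 14 of input.

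Each gap is by definition the space between neighbouring listed peaks, so both of its sides carry reads. At Hist1h2ag and Hist1h2bj, whose promoter is the first printed above, the peak on the Hist1h2ag side held 150 reads over 20 input reads and that on the Hist1h2bj side 61 over 10. At Hist1h2bl and Hist1h2ai the sides held 95 over 15 and 81 over 12. At the pairs Hist1h2ak with Hist1h2bn, Hist1h2ah with Hist1h2bk, Hist2h2ac with Hist2h2be and Hist3h2bb-ps with Hist3h2a, a peak ran across the promoter. Of the 16 start sites outside a peak, 8 belonged to the 18 genes of such pairs and 8 to the other 39 members. Histone genes include near-identical copies, and the handling of reads that match several places is not given in the sources used here. Among the 48 RefSeq windows 10 held a run of 30 bases found in another member's window, most of all Hist2h3c1 and Hist2h3c2-ps (83.4% of runs). Of the 9 genes at gaps with a window, 1, Hist1h2ad, held such a run (4.06% of its runs). The part of reads that match several places in the gaps was not tested.

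The comparison of neurons with NSCs asked whether the histone promoters kept H3K4me3 after differentiation. Most did. In neurons 47 of 57 start sites had a peak within 1000 bp (82.5%, 95% exact interval 70.1 to 91.3), against 61.7% of all genes. The difference from all genes rests on that rule. With the start site inside the peak it was 30 of 57 members, against 9793 of 18778 genes. At an FDR under 1e-20 it was 18 of 57, against 7510 of 18778. All 47 members marked within 1000 bp were also marked in NSCs. By that rule 0 members gained the mark (2.81% of unmarked genes gained it, but here no member was unmarked in NSCs). The 10 members that lost it are 17.5% of those marked in NSCs (8.75 to 29.9), and 13.6% of all marked genes lost it, a share inside that interval. The interval treats members as separate, though many shared a peak, so it can be too narrow.

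Most members lie on chromosome 13, and so did all the losses. They were 4 of the 5 genes of group b, 5 of 26 in group c and 1 of 13 in group a, with none among the 9 Hist2 genes on chromosome 3, the 3 Hist3 genes or Hist4h4. By type they were 4 of 15 H2A, 3 of 13 H2B, 2 of 12 H3, 1 of 12 H4 and 0 of 5 H1 genes. Of all genes marked in NSCs, 13.6% lost the mark. Lost neighbours often shared an NSC peak, so these counts are not of separate events. In group b, Hist1h2ah and Hist1h2bk shared an NSC peak with 160 reads over 31 input reads and a width of 2800 bp. In neurons the closest peak was 3763 bp from the start site of Hist1h2ah and 3461 bp from that of Hist1h2bk. The pair Hist1h2ag and Hist1h2bj lay 1614 and 1884 bp from the neuronal peak that still marked their neighbour Hist1h4i. That peak held 76 reads over 17 input reads in neurons, and the NSC peak at Hist1h4i held 150 over 20.

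In group c the broad NSC peak over Hist1h4h, Hist1h2af and Hist1h3g was shorter in neurons, 2800 bp in place of 7600 bp, with 110 reads over 38 input reads. It covered the H4 gene Hist1h4h in both cell types and ended 1176 bp from Hist1h2af and 2688 bp from Hist1h3g in neurons. Hist1h2ab and Hist1h3b shared 1 NSC peak, 2200 bp wide, of 90 reads over 18 input reads. The neuronal peak closest to them, at Hist1h2bb, was 3958 and 5137 bp away. Hist1h2bh lost its mark by the distance rule, with the neuronal peak 1374 bp from it, while its head-to-head partner Hist1h3f kept one at 766 bp. That neuronal peak, of 26 reads over 7, overlapped neither NSC peak beside the shared promoter but another, of 52 reads over 7, farther along Hist1h3f. In group a, the gene named Hist2h4 lost its mark, with the nearest neuronal peak 1816 bp away. Its neighbour Hist1h2ao kept one at 505 bp.

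The lost start sites lay close to neuronal H3K4me3, in clusters where the next histone gene is near. Of the 10, 9 had a neuronal peak within 5000 bp, with a median distance of 2286 bp, and of all 1794 genes that lost the mark 12.7% had one, with a median of 34337 bp. The nearest neuronal peaks of the lost members marked neighbouring histone genes. The share over all genes was not matched for the spacing of genes, so closeness cannot be told apart from the layout of the clusters. The members nearest the limit of 1000 bp were Hist1h3a, marked at 945 bp, and Hist1h2af, unmarked at 1176 bp. The count of losses rests on that limit and on the strength of the peaks. With the peak that each gene table names it was 16 of 49, or 32.7%, against 18.2% of all genes so marked. It was 1 of 57 within 5000 bp, against 14.3% of all marked genes, 16 of 41 where the start site had to lie inside the peak, against 23.3%, and 36 of 54 at an FDR under 1e-20, against 40.1%. By these rules members lay above or below the share of all genes. With 1 gene per NSC peak it was 4 of 39. Only members were thinned in that count, so it has no like share over all genes. It also rests on which gene of a peak is kept.

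Losses went with weaker NSC peaks, as they did over all genes. All 10 lost members were among the 41 in the weakest of the 5 groups, where 52.3% of all genes lost the mark. None of the 16 stronger members lost it. In the stronger groups, from weak to strong, 9.96%, 3.47%, 1.55% and 0.604% of all genes did. The lost members' NSC peaks had a median of 50.4 reads per kb and those of the 47 kept members 61.3. The part of peak strength in the losses was not tested.

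**Figure D3:**
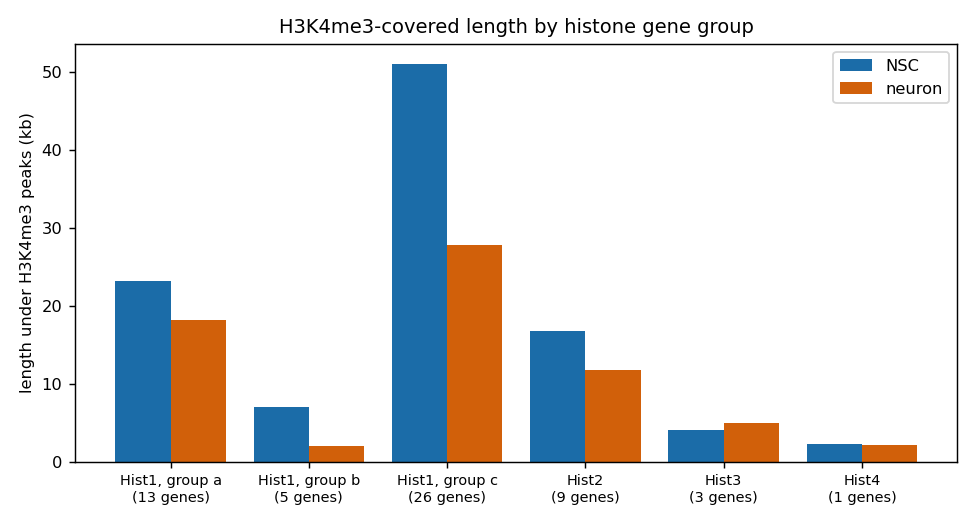
Length under H3K4me3 peaks (kb) in each histone gene group, with 1 kb added at both ends, in the NSC library and the neuron library (1 each). The neuronal bar is the lower one in each group except Hist3, and the ratio is lowest in Hist1 group b, 2 kb against 6.97 kb.

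Covered length fell short of that in NSCs in all groups but Hist3. Hist1 group a, on chromosome 13 from 21805868 to 21925065 with 1 kb added at both ends, had 23.2 kb under NSC peaks and 18.2 kb under neuronal ones. Group b, from 22126033 to 22136671, had 6.97 and 2 kb, and group c, from 23621919 to 23857283, had 51.1 and 27.9 kb. Hist2, on chromosome 3 from 96022839 to 96074027, had 16.8 and 11.8 kb. Hist3, on chromosome 11 from 58761413 to 58770109, had 4.11 and 4.91 kb. Its widest peak, at Hist3h2bb-ps and Hist3h2a, held 274 reads over 26 of input across 3000 bp in the NSC library. In the neuron library it held 156 over 50 across 4600 bp. A neuronal peak overlapped 37 of the 43 peaks of NSCs (86.0%) by 1 bp or more, and 85.7% of the nearest peaks of all marked genes. With an overlap of 50% of both peaks it was 27 of 43 (62.8%), against 71.2% of all. Over these places and Hist4h4 together neurons had 0.640 of the NSC length. This was close to the value at other start sites when like regions were compared. NSC and neuronal peaks that overlapped were merged into regions, and over all regions within 1000 bp of a start site neurons had 0.651 of the NSC length at histone genes (65.4 of 100.4 kb) and 0.670 at all genes.

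The reads in these regions gave a higher ratio at histone genes than at all genes, though the lengths did not. The neuron H3K4me3 library was less enriched, and in 397 peaks with the same bounds in both lists it held 0.399 times the NSC reads over 0.775 times the input reads. Of 42 histone regions 36 had peaks of both cell types (85.7%), as had 9289 of 11050 regions at all start sites (84.1%). In the 36 regions the neuronal reads were 2268 and the NSC reads 5693, a ratio of 0.398 (95% exact interval 0.379 to 0.418, counting error only). Over all start-site regions the ratio was 0.318 (0.317 to 0.319), and over those on chromosome 13 it was 0.328. The median ratio per region was 0.431 for the histone genes, with quartiles of 0.328 and 0.502, and 0.308 for all, with 0.253 and 0.367. These ratios hold only for regions where a neuronal peak was called, and use the reads in separately called peaks. With the regions that had a peak in 1 cell type only, the ratio was 0.365 (0.348 to 0.383) at histone genes and 0.305 (0.304 to 0.305) at all. The clusters differed in pooled reads. The ratio was 0.401 (0.378 to 0.426) for Hist1 and 0.584 (0.487 to 0.700) for Hist3. It was 0.326 (0.291 to 0.365) for Hist2, an interval that holds the 0.318 of all regions. The median per region differed less between Hist1 and Hist2, at 0.431 and 0.392, both above the 0.308 of all regions. Regions with ratios of 0.211 and 0.252 were among the 5 of Hist2. Input reads in the same regions stood at 0.639 for the histone genes and 0.627 for all. At the 2 Hist3 regions, however, the input ratio was 1.68 and the ratio of peak lengths 1.48. The median ratio of reads per kb was 0.431 for Hist3, 0.433 for Hist2 and 0.616 for Hist1. Over the histone regions together it was 0.534, and over all start-site regions 0.422.

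**Figure D4:**
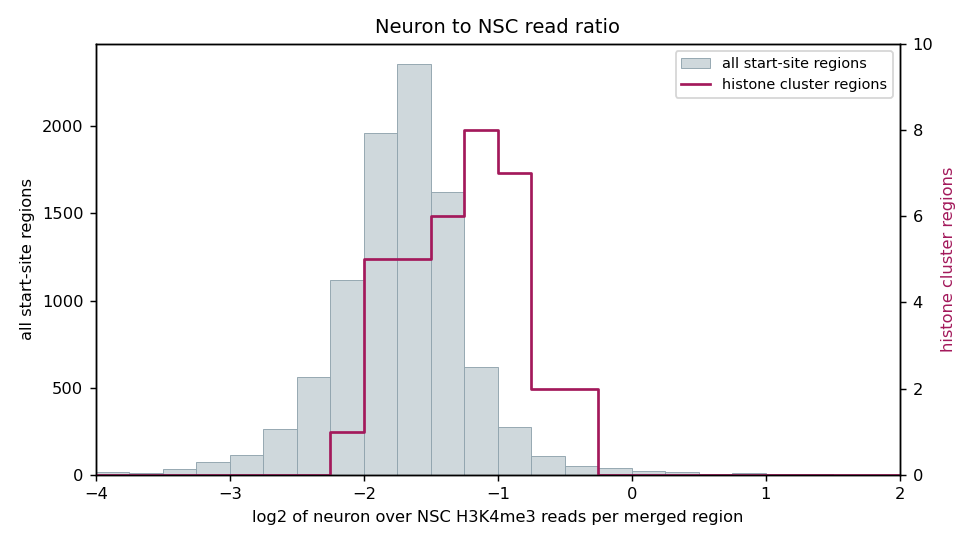
Distribution of the log2 ratio of neuron to NSC H3K4me3 reads per merged region, for all 9289 start-site regions (bars, left axis) and the 36 histone cluster regions (line, right axis), 1 library per cell type. The median ratios before the log were 0.308 and 0.431, so the histone line sits to the right.

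The ratio was also read by NSC signal. In the weakest of 5 groups of regions, by NSC reads per kb, the median was 0.324 over all 1858 regions and 0.432 over the 28 histone regions, 21 of which were above the former. In the next group it was 0.303 over all and 0.416 over 7 histone regions. These groups, too, hold only regions with a called neuronal peak, and the part of peak strength in the ratio was not tested.

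Single regions ranged from 0.211 to 0.725. The lowest was at Hist2h3c2-ps and Hist2h2aa1, with 322 reads in NSCs and 68 in neurons (95% exact interval of the ratio 0.160 to 0.275). Next came Hist2h2aa2 with Hist2h3c1, whose RefSeq windows share most runs with those of that pair, with 317 and 80 reads and a ratio of 0.252 (0.195 to 0.323). The highest was the region between Hist1h2bg and Hist1h2bf, with 120 and 87 reads (0.544 to 0.963). Intervals of these low and high regions did not overlap, but they cover counting error alone. The ratios of reads per kb were 0.422, 0.433 and 0.798, in the same order.

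The H1 genes all kept the mark. Hist1h1c, of H1.2, had 221 reads in NSCs and 92 in neurons, a ratio of 0.416 (0.323 to 0.533). Hist1h1d, of H1.3, had 188 and 84, and Hist1h1b, of H1.5, had 267 and 69, a ratio of 0.258 (0.195 to 0.338). Hist1h1e, of H1.4, shared its region with Hist1h2be, with 321 and 127 reads. The deposited model of Hist1h2be is 37383 bp long and puts its start site beside Hist1h1e, so its peak may not be its own. Hist1h1a, of H1.1, shared its region with Hist1h4a and Hist1h3a, with 180 and 54 reads. Hist1h1b thus had the lowest ratio among the H1 genes, below the interval of Hist1h1d (0.341 to 0.581).

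Most H4 genes stood under a peak of their own. Hist1h4j had 126 reads in NSCs and 68 in neurons, and Hist1h4k, which shares promoter runs with it, had 159 and 73. Hist1h4c had 92 and 33 reads, and Hist1h4m 96 and 45. The smallest were Hist1h4f, with 56 and 24 reads, and Hist1h4d, with 67 and 20. The Hist2h4 gene on chromosome 3 kept its mark, at 197 reads over 21 of input in NSCs and 96 over 36 in neurons. All neuronal values were below those in NSCs, in a library with fewer reads in peaks.

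The neuronal peak often lay beside the start site at H3 genes. In neurons 3 of the 10 marked H3 start sites were inside the peak (30%, 95% exact interval 6.67 to 65.2), and 7 of 11 of H4 (30.8 to 89.1), intervals that overlap widely. Over all histone genes it was 30 of 47 (63.8%), and over all 11580 marked genes 84.6%. Hist1h3e had 102 reads in NSCs and 35 in neurons, with the neuronal peak 239 bp from the start site. Hist1h3i had 49 and 28 reads, and was inside a peak in neurons but 240 bp from one in NSCs. Hist2h3b, with 181 and 71 reads, was inside a peak in both.

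Among the H2A and H2B genes that kept the mark, the pair Hist1h2ak and Hist1h2bn had 147 reads over 34 of input in NSCs and 64 over 20 in neurons. In the Hist2 cluster, Hist2h2ab, Hist2h2ac and Hist2h2be shared 1 NSC peak of 238 reads. In neurons it was met by 2 peaks, of 60 reads at Hist2h2ab and of 34 reads over the promoter of the other pair. Hist1h2ae and Hist1h2bg were the 2 genes whose nearest neuronal peak had more reads per kb than the nearest NSC peak, 43.5 against 32.9, and these are not the same peak.

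H3K27me3 was near few histone start sites. In NSCs 1 of 57 start sites had a peak within 1000 bp (1.75%, 95% exact interval 0.0444 to 9.39), against 19.2% of all genes, and in neurons 0 of 57 (upper bound 6.27), against 17.9%. The median distance to the nearest peak was 52069 bp in NSCs and 54069 bp in neurons, and over all genes 50879 and 51511 bp. The exception was Hist3h2ba, an H2B gene at the edge of the Hist3 cluster, under a 12600 bp NSC domain with 274 reads over 104 input reads. The nearest neuronal peak was 4000 bp wide with 69 reads over 23, and lay 2414 bp from the start site. Hist3h2ba was counted as a loss of H3K27me3, as were 25.3% of all genes marked in NSCs, and 0 of 56 others gained it (4.4% of all unmarked genes). Its H3K4me3 peak held 58 reads over 14 in NSCs and 38 over 17 in neurons. Hist3h2bb-ps lay 1015 bp from the same NSC domain, just outside the limit, and Hist3h2a 1188 bp. Peaks of the mark did lie inside the places between start sites. In Hist1 group c there were 2 in NSCs, covering 7.4 kb, and 1 in neurons, covering 4 kb, and in NSCs 64.2% of the Hist3 place was covered. Within 5000 bp of a peak there were 5 members in NSCs and 2 in neurons.

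Genes that act with the replication histones were marked much like the histone genes, in stronger peaks. Of 20 scored genes of histone mRNA transcription and processing, 20 had H3K4me3 in NSCs and 19 in neurons. Over all genes it was 70.4% in NSCs and 61.7% in neurons, and 13.6% of those marked in NSCs lost it. Slbp, of the stem-loop binding protein, had 268 reads over 27 in NSCs and 76 over 20 in neurons. Npat, of the cyclin E-Cdk2 substrate that activates histone genes, had 337 over 31 and 126 over 30. Lsm10, of the U7 snRNP, was the 1 loss, with 101 reads in an 800 bp peak in NSCs and no neuronal peak closer than 6533 bp. Sympk, of a cleavage factor scaffold, carried H3K27me3 near its start site in both cell types, at 127 and 727 bp. The median was 107 reads per kb in NSCs and 47.5 in neurons, and the nearest peaks of all marked genes had 95.7 and 41.9.

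Of 21 scored histone chaperone genes, 19 had H3K4me3 in NSCs (70.4% of all genes) and 18 in neurons (61.7%). Asf1b, of a chaperone of H3 and H4 linked to proliferation, was the loss, with 216 reads over 21 of input at its NSC peak. Its closest neuronal peak was 16594 bp off. Ipo4 and Set had no peak within 1000 bp in either cell type. Of 11 scored genes of replication-independent variants, the same 9 had H3K4me3 in both cell types and 0 had H3K27me3. H3f3a, of H3.3, had 563 reads over 79 in NSCs and 225 over 44 in neurons, and H2afz, of H2A.Z, had 271 over 25 and 75 over 25. H3f3b, the other H3.3 gene, had its nearest peak 1324 bp from the deposited start site in NSCs and 1924 bp in neurons, and the oocyte linker histone gene H1foo had none within 5000 bp. The variant genes had a median of 102 reads per kb in NSCs, above all histone cluster genes but Hist4h4, and 41 in neurons.

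As a check of the labels, the 5 NSC markers (Nes, Sox2, Olig2, Hes5 and Vim) had H3K4me3 in both cell types. Of 5 scored neuronal markers, Mapt (the Tau gene) and Tubb3 had it in both, Dcx and Stmn3 in neurons alone, and Stmn2 in neither. Of 3 astrocyte markers S100b had it in NSCs and none in neurons, and Mbp, the 1 scored oligodendrocyte marker, had it in neither. A histone mark at a start site is not a measure of expression, which was not measured in these libraries.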

How the data were processed

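Per the submitters' processing notes, reads were handled with FastQC, Bowtie, SAMtools and SICER on mm9, without stated versions. For each of the 4 immunoprecipitated libraries the authors deposited a SICER peak list, called on that library against its input, and a table pairing genes with peaks. Per peak, the deposited values are counts of immunoprecipitated and input reads, a p-value and an FDR, and a fold, which is the ratio of the counts times a constant. Folds and p-values were not compared between lists. Listed peaks had an FDR under 0.001. Reads in peaks numbered 983266 to 3623654 per library, and library totals are unknown.

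A start site is the 5′ end of the deposited gene model, and a gene is marked when a listed peak lies within 1000 bp. Lost and gained are calls, not tests. Intervals are exact (Clopper-Pearson, 95%), and all cover counting error only, since reads without molecular identifiers need not be separate molecules. Those on counts of genes treat members as separate, though members share peaks. The members, lists and motifs were chosen with earlier results of these data known. Named are members that differ between cell types or carry H3K27me3, and extremes of width, reads and ratio. Distances were tested on simulated data. Alternatives are described at the end. Sequences are RefSeq's (GRCm38.p6), matched by older symbols. Lists held 16 variant, 22 processing and 23 chaperone symbols. Python 3.11.15, pandas 2.3.3, numpy 2.4.6 and scipy 1.17.1 were used.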

Additional observations from a re-analysis of the deposited data

How the results depend on the processing

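The count of 57 members with H3K4me3 in NSCs ranged from 41 to 57 over the other ways of calling a marked gene. That in neurons ranged from 18 to 56. Over all 18778 genes the NSC share ranged from 58.5 to 74.8%, and the neuronal count from 7510 to 12310. With the peak each gene table names, 16 of 49 members lost H3K4me3 (32.7%, against 18.2% of all genes). By that rule 5 of the 57 members gained it, and 708 of all 18778 genes. Where the start site had to lie inside the peak, 30 of 57 members were marked in neurons, against 9793 of all 18778 genes. There 16 of 41 lost the mark, against 23.3% of all genes. By that rule 5 of the 57 members gained it, and 137 of all 18778 genes. In that setting 9 NSC peaks marked several members in place of 21. Within 5000 bp, 1 member lost H3K4me3, 5 members had H3K27me3 in NSCs and 2 in neurons, and 37 NSC peaks marked several members. At an FDR under 1e-20, 18 of 57 members were marked in neurons, against 7510 of all 18778 genes. At that limit 36 of 54 lost H3K4me3, against 40.1% of all genes. With equal numbers of peaks in both lists, all 6 start-site counts were as before. Added after the data were seen, a count of 1 gene per NSC peak gave 4 losses among 39 members, with no like count over all genes. Leaving out Hist1h2be, also added then, moved no count by more than 1. In the 3 histone peaks with the same bounds in both lists the ratio of neuronal to NSC reads was 0.488, and over all 42 regions, an alternative also added after the data were seen, 0.365. For the moved values the cause was not tested, apart from what each rule does by construction. No paired analysis was possible because each group had 1 library. Neuronal peaks at members held 18 to 160 reads, which limits what can be read from a single region.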

Other observations

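Other genes lie inside the histone groups. Of 10 non-member genes there, 7 of them without a symbol, 10 had H3K4me3 in NSCs (70.4% of all genes) and 9 in neurons (61.7%). None had H3K27me3 in either, against 19.2% of all genes in NSCs and 17.9% in neurons. The gene without H3K4me3 in neurons was Hfe, which encodes an iron-regulating membrane protein and lies in Hist1 group c. Its nearest neuronal H3K4me3 peak was 12524 bp from the start site. Trim17 shares its deposited start site with Hist3h2a, so its marks cannot be told apart from those of the histone gene. Other non-member start sites also lie near a member, such as that of Gm9998 beside Hist1h2bc, so the same peak can be counted for both.

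Some histone genes have deposited models longer than the short coding unit. Of 13 members with a model of 1000 bp or more, 12 kept H3K4me3 in neurons, the exception being Hist1h2bk, and of 44 shorter members 35 did. The lost shares were 7.69% (0.195 to 36.0) and 20.5% (9.80 to 35.3). Both intervals hold the 13.6% of all genes marked in NSCs that lost it. Among the long ones were Hist1h2bc (8290 bp), Hist1h2bn (3515 bp), Hist1h1d (2964 bp) and Hist2h2be (1988 bp). Hist1h2bc had 176 reads in NSCs and 109 in neurons in the peak nearest its start site. This split was made after the data were seen, and the difference was not tested.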
